A study of Homo sapiens with 6 samples.

Results

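Cells make asparagine, alanine, aspartate, glutamine and proline from carbon skeletons of the tricarboxylic acid (TCA) cycle and from nitrogen carried by glutamate. The data concern 8 genes that encode enzymes of this traffic, ASNS, GPT2, GOT1, GOT2, GLUL, GLUD1, PYCR1 and ALDH18A1, chosen by gene symbol. All 8 were found among the 16330 genes of the deposited tables. RNA was sequenced from 3 libraries of HN12 cells labelled CPI-613 and 3 labelled Control, which were cells given DMSO, the solvent. HN12 is a cell line from a human squamous cell carcinoma of the head and neck, grown in DMEM with serum, and both groups were treated for 24 h. CPI-613, also called devimistat, resembles lipoate and is aimed at the dehydrogenase complexes of pyruvate and oxoglutarate, and the sources used here do not give its dose. The line is the one genetic background in the data, so each value describes HN12 cells.

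ASNS takes the amide nitrogen of glutamine and attaches it to aspartate to give asparagine. GPT2, GOT1 and GOT2 are aminotransferases that move amino groups between glutamate and pyruvate or oxaloacetate. GLUL makes glutamine from glutamate and ammonia, GLUD1 removes the amino group of glutamate inside mitochondria, and ALDH18A1 and PYCR1 carry out the first and last steps of proline synthesis from glutamate. In many cell types ASNS and several neighbours are targets of ATF4, a transcription factor translated when eIF2alpha is phosphorylated.

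Summed over genes, the libraries held 11531942 to 15486513 estimated counts. CPM below are counts scaled to library size, corrected by TMM, a method that sets aside genes with extreme differences. FPKM are the authors' deposited values scaled to transcript length and library total, and levels of different genes are set against each other only in FPKM. Of 10 squamous markers all 10 were in the table, with a summed level of 3051 to 6473 FPKM in CPI-613 libraries and 4817 to 7250 FPKM in Control libraries. Of the 10, KRT5 and PKP1 lay wholly below Control, KRT5 at 239 to 647 FPKM with CPI-613 and 1039 to 1382 FPKM in Control, and PKP1 at 8.48 to 28.5 FPKM with CPI-613 and 33.3 to 70.7 FPKM in Control. Their part in the results was not tested. Of 5 fibroblast markers 2 were listed, with COL1A1 at 5.45 to 5.7 FPKM with CPI-613 and 6.0 to 7.48 FPKM in Control. All 5 endothelial markers were listed, at 0.51 FPKM or less, and 3 lay wholly below Control. The part of these markers in the results was not tested. Of 5 leukocyte markers 3 were listed, with PTPRC at 0.07 FPKM or less and LYZ at 0.35 to 1.1 FPKM over all libraries. CD14 reached 2.89 FPKM in CPI-613 libraries and 25.8 FPKM in Control libraries, and its part in the results was not tested. Within a group, libraries departed from one another with the GC content of genes. The Pearson correlation across genes between a library's deviation from its group mean and GC content was -0.74, -0.11 and 0.76 in CPI-613 replicates 1 to 3 and -0.37, 0.56 and -0.53 in Control replicates 1 to 3. The fit called GC- and length-adjusted below takes out, per library, the trend with transcript length and GC content. Nothing in the labels tells whether replicates came from separate cultures. The p-values therefore speak only of the spread among these libraries, which may be technical.

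With CPI-613, ASNS and GPT2 rose by 7.33-fold and 5-fold, and GOT1, PYCR1 and GLUD1 had higher values in every CPI-613 library than in any Control library without passing the test. GOT2, GLUL and ALDH18A1 had values that overlapped between the groups. These are levels in bulk RNA, where a change in the mix of cells and a change per cell cannot be told apart. By edgeR's quasi-likelihood test with Benjamini-Hochberg adjustment over all 12671 genes tested, at a threshold of 0.05, 2 of the 8 genes were called higher and 0 lower, and 5 had an unadjusted p under 0.05, as 14.4% of all genes did. Over all genes 1.94% were called higher and 1.24% lower. Of the 8 genes 5 lay wholly above Control, which 11.8% of all genes did. The median log2 fold change was 0.93 over the 8 genes and 0.02 over all genes tested.

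**Figure D1:**
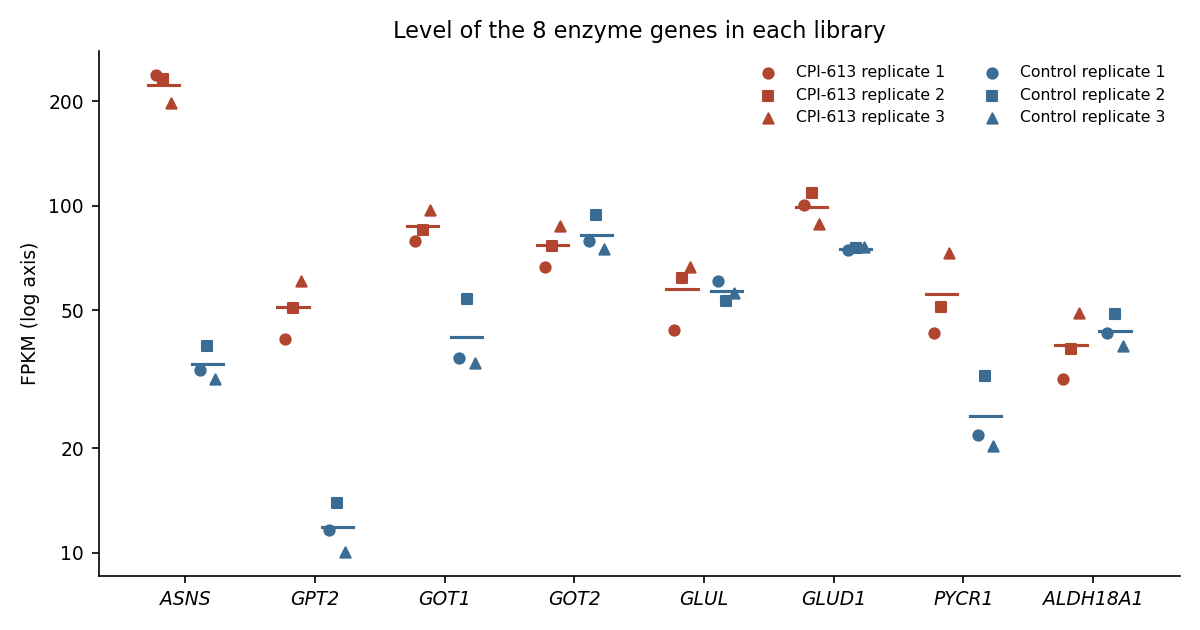
Deposited FPKM of each gene (log axis) in 3 CPI-613 libraries (red, left of each pair) and 3 Control libraries (blue, right), with marker shapes for the replicate number and lines at the group means. ASNS stands at 197 to 239 FPKM with CPI-613 and at 31.6 to 39.5 FPKM in Control, while GOT2, GLUL and ALDH18A1 overlap.

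Per length, the order of the 8 genes differed between the groups. With CPI-613 ASNS was the most abundant at 223 ± 22.1 FPKM (SD, n = 3), and its lowest library lay above the highest library of GLUD1, the next gene. GLUD1 followed at 99.2 ± 9.97 FPKM, GOT1 at 87.1 ± 9.16, GOT2 at 76.9 ± 10.6, GLUL at 57.5 ± 11.96, PYCR1 at 55.8 ± 15.6, GPT2 at 50.9 ± 9.63 and ALDH18A1 at 39.8 ± 8.72 FPKM. Each of these 7 genes except ALDH18A1, the last, overlapped with the next in its libraries. In Control the order was GOT2 at 82.6 ± 9.83 FPKM, GLUD1 at 75.2 ± 0.847, GLUL at 56.7 ± 3.86, ALDH18A1 at 43.6 ± 4.68, GOT1 at 41.8 ± 10.4, ASNS at 34.9 ± 4.12, PYCR1 at 24.7 ± 6.51 and GPT2 at 11.9 ± 1.92 FPKM. Neighbours in the Control order overlapped except between GLUD1 and GLUL, GLUL and ALDH18A1, and PYCR1 and GPT2. The 8 genes together summed to 690 ± 40.0 FPKM with CPI-613 and 371 ± 34.9 FPKM in Control (SD, n = 3). ASNS made up 32.5 ± 4.83% of that sum with CPI-613 and 9.39 ± 0.219% in Control.

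ASNS (gene ID 440), on chromosome 7 at 97851677 to 97928441 (RefSeq, GRCh38.p14, as for all genes here), is the one gene of the set that amidates aspartate. It measured 239, 232 and 197 FPKM in CPI-613 replicates 1 to 3, against 33.7, 39.5 and 31.6 FPKM in Control replicates 1 to 3. The lowest CPI-613 library was far above the highest Control library. In FPKM the order of the CPI-613 libraries was opposite to that of most of the other genes. On the TMM scale it was not, with ASNS at 443, 472 and 450 CPM in CPI-613 replicates 1 to 3. There ASNS averaged 455 ± 15.4 CPM with CPI-613 and 62.1 ± 9.43 CPM in Control (SD, n = 3). The log2 fold change was 2.87 (SE 0.19), higher than that of 99.7% of all genes (edgeR adjusted p = 0.00387, and 2.65e-39 to 0.0595 under the alternatives). Without Control replicate 1 the adjusted p was 0.0564 and without Control replicate 3 it was 0.0595, fits in which edgeR called 0 of all genes (1064 and 1118 genes had an unadjusted p under 0.05). The GC- and length-adjusted log2 fold change was 2.79 (SE 0.12), and it kept an adjusted p of 0.00248 or less when each library in turn was left out of that edgeR fit.

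The ASNS promoter is the textbook site of amino acid control in human cells. It holds the nutrient-sensing response elements NSRE-1, bound by ATF4, and NSRE-2 downstream of it. NSRE-1 is of the type known as a C/EBP-ATF response element, or CARE, with the letters TGATGNAA, and NSRE-2 reads GTTACA. RefSeq promoter windows for GRCh38.p14, of 300 bases from 250 before to 50 after a start site, were matched for 6 of the 8 genes (8 windows, none for GPT2 and PYCR1). Both strands were searched, and the 2 motifs do not overlap in the match. TGATGNAA was found in 3.62% of all 35116 windows and GTTACA in 6.66%. Among the 18921 windows of protein-coding genes in the tables the shares were 2.3% and 5.21%. Among the 8 windows TGATGNAA matched in the upstream ASNS window, 68 to 61 bases before the start at 97872408, and on the opposite strand in the GOT1 window, 198 to 191 bases before the start at 99430624. GTTACA matched in the same ASNS window, 48 to 43 bases before the start. The other ASNS window, with its start at 97872165, and those of GOT2, GLUL, GLUD1 and ALDH18A1 held neither run of letters. A match is a run of letters, and binding was not measured here. The 250 bases upstream of the window's start are printed 5′ to 3′ on the gene's strand (minus in all 3), with matches in capitals. Shown are the 2 windows with a match and that of GOT2, the mitochondrial partner of GOT1. They are chr7:97872409-97872658, chr10:99430625-99430874 and chr16:58734317-58734566.
ASNS: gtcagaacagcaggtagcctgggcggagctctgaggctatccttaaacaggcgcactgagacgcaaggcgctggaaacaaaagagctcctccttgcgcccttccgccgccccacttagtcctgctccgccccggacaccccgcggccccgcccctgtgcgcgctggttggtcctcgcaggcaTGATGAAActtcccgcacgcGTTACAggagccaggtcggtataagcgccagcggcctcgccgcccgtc
GOT1: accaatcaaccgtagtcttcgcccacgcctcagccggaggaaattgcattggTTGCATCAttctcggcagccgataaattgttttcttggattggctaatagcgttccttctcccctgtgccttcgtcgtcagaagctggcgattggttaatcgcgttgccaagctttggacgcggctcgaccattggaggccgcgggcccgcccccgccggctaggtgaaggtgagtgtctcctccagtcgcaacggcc
GOT2: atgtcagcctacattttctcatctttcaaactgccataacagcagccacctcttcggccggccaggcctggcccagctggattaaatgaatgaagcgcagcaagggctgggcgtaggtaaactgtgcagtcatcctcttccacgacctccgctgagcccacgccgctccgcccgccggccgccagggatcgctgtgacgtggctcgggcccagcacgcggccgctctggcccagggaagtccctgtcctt

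The transcripts of ASNS differed in how far CPI-613 libraries lay above Control libraries. The counts table splits ASNS into 7 RefSeq transcripts, 6 of which have a GENCODE 29 start. Of these, 4 start upstream, at 97872394 to 97872542, in the stretch that holds the matched motifs, and 2 start downstream, at 97872113 and 97872131. The upstream group, a grouping made after the values were seen, took 48.8%, 46.7% and 49.7% of ASNS counts in CPI-613 replicates 1 to 3, against 18.4%, 28.4% and 26.3% in Control replicates 1 to 3. Every CPI-613 library lay above every Control library, with means of 48.4 ± 1.55% with CPI-613 and 24.4 ± 5.29% in Control (SD, n = 3).

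Most of the upstream group was NM_001673, which measured 188 ± 18.4 CPM with CPI-613 and 14.5 ± 4.30 CPM in Control, here scaled by library total alone, a CPI-613 over Control ratio of means of 12.9. The downstream group measured 194 ± 29.8 CPM with CPI-613 and 34.7 ± 3.59 CPM in Control, a ratio of 5.59. NM_001352496, whose start was not matched, measured 26.2 ± 3.29 CPM with CPI-613 and 15.3 ± 1.47 CPM in Control, a ratio of 1.72. Its share of ASNS counts was 6.23 ± 1.32% with CPI-613 and 23.1 ± 1.76% in Control. These shares rest on the authors' estimated division of reads that transcripts share, and they were not tested. Starts are those of GENCODE 29, which places the start of NM_001673 at 97872471, inside the TGATGNAA match at 97872469 to 97872476.

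**Figure D2:**
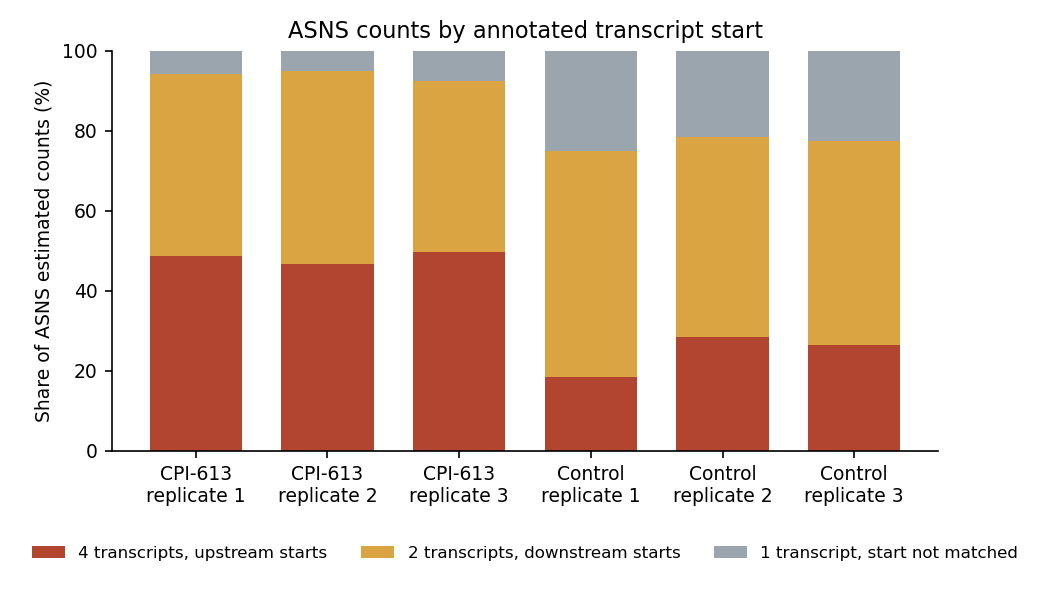
Share of ASNS estimated counts (percent) by annotated transcript start in 3 CPI-613 libraries (left) and 3 Control libraries (right). The upstream starts hold 46.7% to 49.7% with CPI-613 and 18.4% to 28.4% in Control.

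The aminotransferases differed from one another. GPT2 (gene ID 84706, chromosome 16 at 46884362 to 46931289) makes alanine from pyruvate in mitochondria and returns oxoglutarate from glutamate. GPT2 measured 41.4, 50.7 and 60.6 FPKM in CPI-613 replicates 1 to 3, against 11.6, 13.9 and 10.1 FPKM in Control replicates 1 to 3. The groups were wide apart. Its log2 fold change was 2.32 (SE 0.28, edgeR adjusted p = 0.0106, and 2.34e-11 to 0.0874 under the alternatives). The value was 2.11 (SE 0.12) when GC- and length-adjusted. Without that adjustment the call was lost without Control replicate 1, Control replicate 3 or CPI-613 replicate 2, at adjusted p of 0.0874, 0.0815 and 0.0762. GPT, the cytosolic alanine aminotransferase, had 1 to 6 estimated counts per library and was not tested.

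GOT1 and GOT2 catalyse the same exchange between aspartate and glutamate, GOT1 in the cytosol and GOT2 in mitochondria, and both belong to the malate-aspartate shuttle. GOT1 (gene ID 2805, chromosome 10 at 99396870 to 99430624) measured 79.1, 85.1 and 97.1 FPKM in CPI-613 replicates 1 to 3, against 36.4, 53.7 and 35.1 FPKM in Control replicates 1 to 3. All CPI-613 libraries were above all Control libraries. At 1.27 (SE 0.27) its log2 fold change was not called (edgeR adjusted p = 0.0571, and 0.00157 to 0.294 under the alternatives). It passed when GC- and length-adjusted, at 1.05 (SE 0.14, adjusted p = 0.00416), and with DESeq2, at 1.24 (SE 0.31, adjusted p = 0.00157).

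GOT2 (gene ID 2806, chromosome 16 at 58707131 to 58734316) measured 66.4, 76.8 and 87.5 FPKM in CPI-613 replicates 1 to 3, against 78.9, 93.7 and 75.1 FPKM in Control replicates 1 to 3. The groups overlapped. Its log2 fold change was 0.11 (SE 0.23) and not called (edgeR, adjusted p = 0.868), and its sign turned under other scalings, to -0.10 (SE 0.16) with library size only and -0.11 (SE 0.10) when GC- and length-adjusted. The GOT1 to GOT2 ratio within a library, where scaling cancels, separated the groups. On the log2 scale of estimated counts it was -0.07, -0.18 and -0.18 in CPI-613 replicates 1 to 3, against -1.44, -1.13 and -1.42 in Control replicates 1 to 3. Per length, GOT1 stood above GOT2 in every CPI-613 library and below it in every Control library.

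GLUL (gene ID 2752, chromosome 1 at 182378098 to 182391790), glutamine synthetase, measured 43.9, 61.8 and 66.6 FPKM in CPI-613 replicates 1 to 3, against 60.8, 53.2 and 56.0 FPKM in Control replicates 1 to 3. CPI-613 replicate 1 was the lowest of all 6 libraries and CPI-613 replicate 3 the highest. The log2 fold change of 0.23 (SE 0.24) was not called (edgeR, adjusted p = 0.771), and it was 0.00 on the FPKM scale with a pseudocount of 1 (SE 0.18). GLUD1 (gene ID 2746, chromosome 10 at 87050202 to 87094843), the mitochondrial glutamate dehydrogenase, measured 100.2, 109 and 88.8 FPKM in CPI-613 replicates 1 to 3, against 74.3, 75.6 and 75.9 FPKM in Control replicates 1 to 3. The groups did not overlap, and the Control libraries lay close together.

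The log2 fold change of GLUD1 was 0.60 (SE 0.16) and not called (edgeR adjusted p = 0.123, and 0.0175 to 0.594 under the alternatives). It passed with DESeq2, at 0.57 (SE 0.18, adjusted p = 0.0244), and when GC- and length-adjusted, at 0.56 (SE 0.11, adjusted p = 0.0175), a call lost there at an adjusted p of up to 0.101 when 1 library was left out. GLUD2, a copy of GLUD1 without introns that could share its reads, was listed at 0.06 to 0.10 FPKM with CPI-613 and 0.12 to 0.21 FPKM in Control.

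The proline genes also differed. PYCR1 (gene ID 5831, chromosome 17 at 81932391 to 81937300), the mitochondrial reductase that forms proline, measured 43.0, 51.1 and 73.2 FPKM in CPI-613 replicates 1 to 3, against 21.8, 32.2 and 20.2 FPKM in Control replicates 1 to 3. All CPI-613 libraries were above all Control libraries, and the CPI-613 libraries were spread the widest of the 8 genes relative to their mean. At 1.42 (SE 0.34) its log2 fold change was not called (edgeR adjusted p = 0.0852, and 0.00213 to 0.374 under the alternatives). It passed with DESeq2, at 1.39 (SE 0.37, adjusted p = 0.00445), and when GC- and length-adjusted, at 1.15 (SE 0.13, adjusted p = 0.00213). ALDH18A1 (gene ID 5832, chromosome 10 at 95605941 to 95656711), which turns glutamate into the precursor of proline and ornithine, measured 31.7, 38.6 and 49.02 FPKM in CPI-613 replicates 1 to 3, against 42.8, 48.7 and 39.4 FPKM in Control replicates 1 to 3. The groups overlapped. Its log2 fold change of 0.09 (SE 0.27) was not called (edgeR, adjusted p = 0.904), and was -0.13 (SE 0.19) with library size only and -0.09 (SE 0.17) when GC- and length-adjusted.

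**Figure D3:**
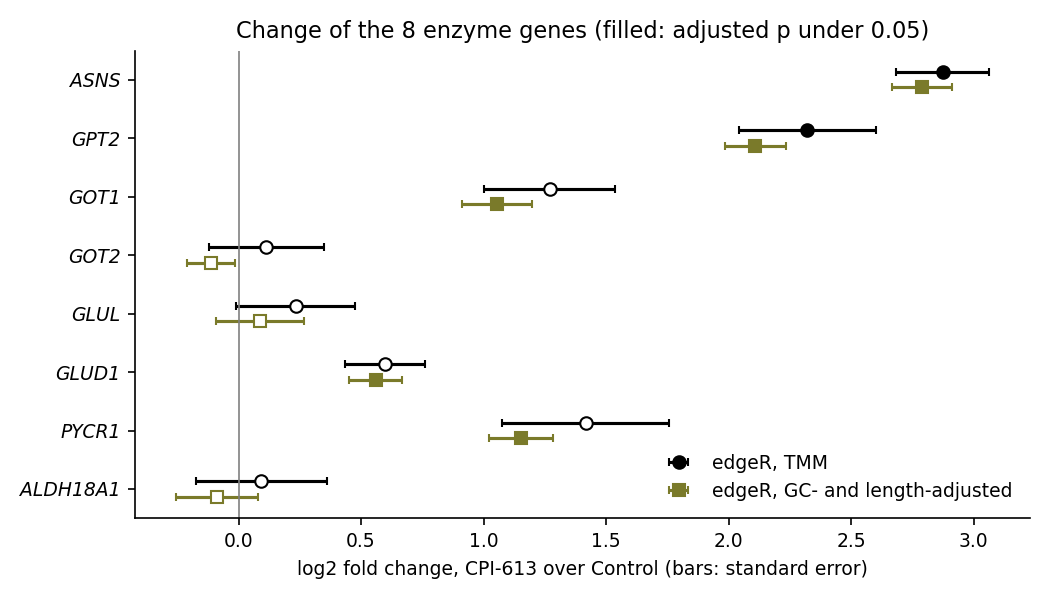
log2 fold change, CPI-613 over Control, of the 8 genes with its standard error, from edgeR with TMM scaling (black circles) and from the GC- and length-adjusted fit (olive squares), filled where the adjusted p is under 0.05. ASNS and GPT2 are filled in both, and GOT1, GLUD1 and PYCR1 in the adjusted fit.

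Several genes shared a pattern among libraries of 1 group. In 6 of the 8 genes, all but ASNS and GLUD1, CPI-613 replicate 1 was the lowest and CPI-613 replicate 3 the highest CPI-613 library in FPKM. In 6 genes, all but GLUL and GLUD1, Control replicate 2 was the highest Control library. CPI-613 replicate 3 and Control replicate 2 are the libraries whose deviations correlated positively with GC content. In the GC- and length-adjusted fit 5 of the 8 genes were called higher and 0 lower, where 5.21% of all genes were called higher and 5.6% lower, and DESeq2 called the same 5 genes, with 3.87% of all genes higher. These were ASNS, GPT2, GOT1, GLUD1 and PYCR1.

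Outside ASNS, the share of the leading transcript overlapped between the groups. NM_133443 took 97.4 ± 0.874% of GPT2 counts with CPI-613 and 96.9 ± 2.29% in Control (SD, n = 3). NM_005271 took 98.2 ± 0.706% of GLUD1 counts with CPI-613 and 99.1 ± 0.502% in Control. The leading transcript of ALDH18A1, NM_002860, took 64.9 ± 4.26% with CPI-613 and 66.3 ± 1.53% in Control. PYCR1 counts were divided over 8 transcripts, of which the leading one took 24.8 ± 6.93% with CPI-613 and 27.7 ± 10.2% in Control. The groups overlapped in each of these 4 genes, as they did in GOT2 and GLUL. GOT1 was counted as a single transcript.

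Pairs of enzymes with opposed or parallel roles were compared as log2 ratios of estimated counts within each library. The p-values of a two-sided exact permutation test of 3 against 3 libraries, which cannot go below 0.10, were adjusted over 6 pairs. Of the 6, 5 separated the groups and 1 did not, and 3 that did are given here. PYCR1 over PRODH is among the 5 but is not read, since PRODH had 0 counts in every CPI-613 library and in Control replicate 1. The share of other gene pairs that would separate was not computed. The counts are not corrected for transcript length, so a ratio is read only as a difference between the groups and not as one gene's level against the other's. Beside GOT1 over GOT2, with a difference between group means of 1.19, the ratio of ASNS over GLUL averaged 1.19 ± 0.441 with CPI-613 and -1.51 ± 0.239 in Control. The ratio of GPT2 over GLUD1, mitochondrial enzymes that both release oxoglutarate from glutamate, averaged -0.68 ± 0.378 with CPI-613 and -2.38 ± 0.236 in Control. In these 3 pairs no CPI-613 library overlapped a Control library (exact permutation p = 0.10 each, the smallest possible, and 0.12 after Benjamini-Hochberg adjustment).

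PRODH, the enzyme that begins proline breakdown, had 0 counts in every CPI-613 library, against 0, 23.6 and 13.2 estimated counts in Control replicates 1 to 3. PRODH had too few counts to be tested, and Control replicate 1 was at 0 like the CPI-613 libraries.

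**Figure D4:**
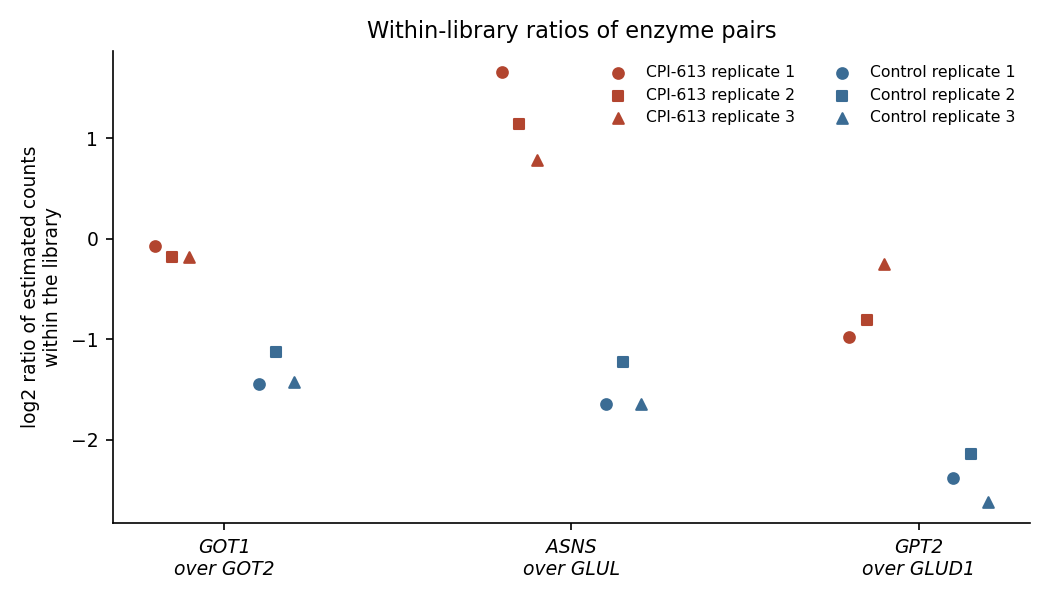
log2 ratio of estimated counts of 3 enzyme pairs within each library, CPI-613 (red, left) and Control (blue, right), with marker shapes for the replicate number. The groups are apart in all 3 pairs, by a difference of means of 1.19 for GOT1 over GOT2, 2.70 for ASNS over GLUL and 1.70 for GPT2 over GLUD1.

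Around the 8 genes, lists of related genes held 53 further members, of which 40 were tested, 8 had too few counts and 5 were not in the tables. Of the 40, 4 were called higher, PSAT1, ODC1, ARG2 and GFPT2, and 0 lower (edgeR, Benjamini-Hochberg adjustment over all genes), where 1.94% of all genes were called higher and 1.24% lower, with a median log2 fold change of 0.18 beside 0.02 over all genes. In the GC- and length-adjusted fit 7 of the 40 were called higher, where 5.21% of all genes were, and the median of the 40 was -0.01, beside -0.04 over all genes. The 7 were the same 4 with GFPT1, at 0.97 (SE 0.12), BCAT1, at 0.92 (SE 0.21), and ASL. GFPT1 and BCAT1 overlapped between the groups in CPM and were not called without that adjustment. Each of the 4 lost its call under at least 1 alternative, where its adjusted p reached 0.0666 for PSAT1, 0.0874 for ARG2, 0.127 for GFPT2 and 0.142 for ODC1. Among glutamine amidotransferases, which like ASNS take nitrogen from glutamine, 1 of 9 other genes tested was called higher. This was GFPT2, an entry enzyme of hexosamine synthesis, at 10.3, 9.28 and 8.52 FPKM in CPI-613 replicates 1 to 3, against 3.94, 3.57 and 3.06 FPKM in Control replicates 1 to 3. The median of these 9 genes was 0.03. CTPS1, a CTP synthase, at -0.23 (SE 0.26), and NADSYN1, an NAD synthetase, at 0.20 (SE 0.20), were the most abundant that were not called.

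Among aminotransferases 1 of 8 other genes tested was called higher. This was PSAT1, the aminotransferase of serine synthesis, which uses glutamate as donor and measured 309, 303 and 232 FPKM in CPI-613 replicates 1 to 3, against 57.3, 71.2 and 58.4 FPKM in Control replicates 1 to 3. Its log2 fold change was 2.36 (SE 0.20, edgeR, Benjamini-Hochberg adjusted p = 0.00497). The ornithine aminotransferase OAT, at 0.12 (SE 0.17), and the branched-chain aminotransferase BCAT2, at 0.24 (SE 0.31), were not called.

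Of 5 further proline genes 0 were called by edgeR and 1 had an unadjusted p under 0.05, and the median of their log2 fold changes was 0.31. Of 6 arginine and ornithine genes 2 were called higher, with a median of 0.82. ODC1, which makes putrescine from ornithine, measured 374, 418 and 436 FPKM in CPI-613 replicates 1 to 3, against 76.2, 156 and 76.7 FPKM in Control replicates 1 to 3. ARG2, the mitochondrial arginase, which releases ornithine, measured 32.0, 32.6 and 30.2 FPKM in CPI-613 replicates 1 to 3, against 10.5, 10.6 and 8.55 FPKM in Control replicates 1 to 3. Both genes were apart between the groups. The argininosuccinate enzymes ASS1 and ASL had log2 fold changes of 0.88 (SE 0.30) and 0.75 (SE 0.25) and were not called, although both lay wholly above Control. Under the alternatives the adjusted p of ASS1 ranged from 0.023 to 0.662 and that of ASL from 0.0324 to 0.668, with ASL at 0.0334 in the GC- and length-adjusted edgeR fit.

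In the other 3 lists edgeR called 0 further genes, and 1 of these genes had an unadjusted p under 0.05. Of 4 other asparagine and aspartate genes, with a median of 0.38, ASNSD1, which resembles ASNS in sequence, was at -0.44 (SE 0.47) and the amidase NIT2 at 0.40 (SE 0.18). Of 6 other glutamine and glutamate genes, with a median of -0.21, ALDH5A1, of GABA breakdown, was at -0.18 (SE 0.23). Of 5 other genes of the malate-aspartate shuttle, with a median of -0.12, the cytosolic malate dehydrogenase MDH1 was at -0.30 (SE 0.15) and the mitochondrial MDH2 at 0.22 (SE 0.30). At an unadjusted p under 0.05 lay 1823 of all genes, or 14.4%.

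**Figure D5:**
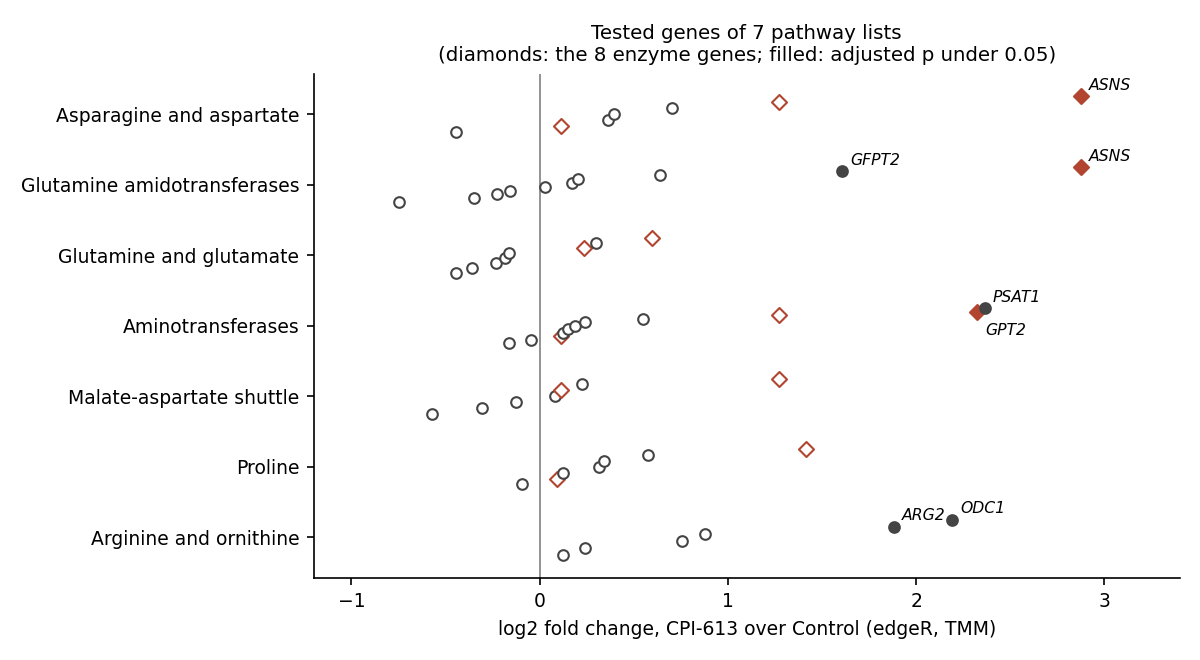
log2 fold change, CPI-613 over Control (edgeR, TMM), of the tested genes of 7 pathway lists, with diamonds for the 8 enzyme genes, circles for the other genes and filled symbols where the adjusted p is under 0.05. Named points are the called genes, and most others lie near 0.

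Across the 6 libraries, the genes whose log2 CPM followed ASNS most closely among 10867 genes were TRAF1, PSAT1, DDIT3, FBXL16 and HID1, with Pearson's r of 0.998 to 0.999. These points share 2 clusters, the CPI-613 and the Control libraries, so r mostly reflects the difference between them. PSAT1 measured 581, 640 and 548 CPM in CPI-613 replicates 1 to 3, against 102, 136 and 107 CPM in Control replicates 1 to 3. DDIT3, which encodes the stress factor CHOP, measured 108, 113 and 119 CPM in CPI-613 replicates 1 to 3, against 27.98, 35.3 and 28.95 CPM in Control replicates 1 to 3. TRAF1, the nearest, lay at 32.1 to 34.0 CPM with CPI-613 and at 10 to 12.3 CPM in Control. In each of these nearest genes, as in ASNS, Control replicate 2 was the highest Control library. They were picked by likeness over these same libraries, so this shared order is no separate result. Of the other 7 enzyme genes GPT2 ranked the nearest to ASNS, at r = 0.98 and rank 134, and ALDH18A1 the farthest, at r = 0.12 and rank 5039. ATF4 measured 683, 711 and 817 FPKM in CPI-613 replicates 1 to 3, against 395, 475 and 389 FPKM in Control replicates 1 to 3, and was not called (log2 fold change 1.00, SE 0.22; edgeR adjusted p = 0.0679, and 0.00278 to 0.371 under the alternatives). It passed in the GC- and length-adjusted edgeR fit, at 0.78 (SE 0.14, adjusted p = 0.0122).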

How the data were processed

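Total RNA of HN12 cells went into NEBNext Ultra II libraries prepared for DNBSEQ sequencing, per the labels' protocols. Per the submitters' processing notes CASAVA, STAR 2.5, HTSeq, edgeR 3.16.5, DESeq2 and hg38 were named, with no roles. For strand use and annotation release, the sources used here give nothing. The authors deposited estimated counts for 79031 RefSeq transcripts. A second deposited table holds values per gene, taken as FPKM since over single-transcript genes they were 1.11 to 1.12 times (median) the FPKM computed from counts and GENCODE 29 lengths in every library. Per library, 38.3% to 41.4% of these genes lay within 10% of that computed FPKM. In 27 transcripts a cell of CPI-613 replicate 1 holds a date; these were left out, and none belongs to a gene of the lists. Genes with no symbol numbered 53, held 0.0163% of counts and were tested under their identifiers.

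Counts were summed per gene, rounded, filtered (edgeR's filterByExpr, minimum count 10, total 15) and scaled by TMM. The test was the quasi-likelihood test of edgeR 4.0.16 (two-sided, Benjamini-Hochberg adjustment over all genes tested, threshold 0.05), with group as the one covariate. A standard error is the log2 fold change over the square root of F. The GC- and length-adjusted fit used a spline trend per library on the longest GENCODE 29 coding transcript (99.41% of tested genes matched). Scripts were run on simulated counts without any trend in GC content or length, which checks the code and not how the fits behave on these libraries. Libraries of 1 group differed beyond counting noise. The chi-square per degree of freedom ran from 3.86 for Control replicates 1 and 3 to 200 for CPI-613 replicates 1 and 3. Depth was 11531942 to 15486513 counts. Genes named outside the 8 are, per list, the called genes and the 2 most abundant not called, the 5 nearest to ASNS, the ratio partners, GLUD2, GPT and ATF4; some of these are not reported here. The 8 genes, the lists and the tests were chosen with earlier results of these data known. Alternatives were 3 other scalings, 2 filters, DESeq2 1.42.0, limma-voom (limma 3.58.1), a replicate block, limma on log2(FPKM + 1 or 0.1), and leaving out each library.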

Additional observations from a re-analysis of the deposited data

How the results depend on the processing

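Results were refitted under 19 alternatives, and the GC- and length-adjusted fits with 1 library left out were added after seeing the data. Over all genes, DESeq2 called 491 higher and 402 lower, the GC- and length-adjusted fit 660 and 710, library size only 259 lower, and 283 were lower in FPKM with no filter. Of the 8 genes DESeq2 and the GC- and length-adjusted fit called 5 each, and that adjusted fit called 7 further pathway genes. With library size only, all genes had a median log2 fold change of -0.169, beside 0.0196 with TMM. The cause was not tested.

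Deviations of same-numbered libraries had correlations of mixed sign (0.457, -0.096 and -0.608). As deviations also followed GC content, these correlations cannot tell whether same-numbered libraries shared a culture or day. The labels name no pairs, so the numbers are not taken as pairs. With the replicate number as a block edgeR called 109 genes higher and 82 lower, and 410 and 417 when also GC- and length-adjusted, with 5 of the 8 enzyme genes higher in that second fit.

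For 3 genes values near 0 changed sign. GOT2 was -0.00070 by upper quartile, -0.10 by library size only, -0.11 GC- and length-adjusted, -0.11 with the block added and -0.10, -0.11 and -0.10 in the FPKM fits (pseudocount 1, 0.1 and no filter). ALDH18A1 was -0.026, -0.13, -0.088, -0.11, -0.15, -0.15 and -0.15 in that order. GLUL was -0.00057, -0.00093 and -0.00057 in the FPKM fits.

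With 1 library left out, 0 to 467 genes were called higher and 0 to 438 lower (271 to 980 and 263 to 1359 when GC- and length-adjusted). Of the enzyme genes 0 to 4 were higher (4 to 5 adjusted), and of the other pathway genes 0 to 6 (5 to 10 adjusted, with 0 to 1 lower). GOT2 ranged from -0.080 to 0.28 (-0.14 to -0.072 adjusted), ALDH18A1 from -0.18 to 0.30 (-0.26 to 0.053 adjusted), and GLUL from 0.025 to 0.45 (-0.078 to 0.27 adjusted). The call of ASNS was lost without Control replicate 1 or 3. At this depth GPT, GLUD2 and PRODH had too few counts to be tested.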
